A study of Mus musculus with 4 samples.

Results

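The genes examined were the 8 mouse genes that write, copy or remove DNA methylation, named Dnmt1, Uhrf1, Dnmt3a, Dnmt3b, Dnmt3l, Tet1, Tet2 and Tet3, of 21774 protein-coding genes in the RefSeq annotation of mm10. They were chosen by name. Every H3K27ac region that the files assign to one of them was taken, as was every H3K4me3 region that overlapped the gene body or lay within 20 kb of a transcription start site (TSS). This gave 25 regions of 31315 in the 4 lists, with 18 for H3K4me3 and 7 for H3K27ac.

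Chromatin immunoprecipitation followed by sequencing (ChIP-Seq) was used to compare embryonic stem (ES) cells of 2 inbred strains, C57BL/6 (B6) and the diabetes-prone non-obese diabetic (NOD) mouse. Both were isolated from embryos and grown with 2i, a pair of MEK and GSK3 inhibitors. H3K4me3 marks active and poised promoters, and H3K27ac marks active promoters and enhancers. There was 1 library for each strain and mark, without replicates, so no difference has a replicate check. The study worked mainly with male NOD lines after their derivation, but the sources used here do not say which line of either strain went into ChIP-Seq. Each list holds regions called for one strain against the library of the other strain. Regions marked alike in both strains are therefore left out, and a gene without a listed region may still be marked. The H3K4me3 libraries held 22750449 tags (mapped reads) for NOD and 14791364 for B6, so NOD was sequenced 1.54 times as deeply. For H3K27ac the files give no depth.

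DNA methylation of CpG dinucleotides is laid down by the de novo methyltransferases Dnmt3a and Dnmt3b, for which Dnmt3l is a cofactor without catalytic activity. At replication, Uhrf1 recognises hemimethylated CpGs and recruits Dnmt1, which copies the methylation to the new strand. Tet1, Tet2 and Tet3 oxidise 5-methylcytosine and so start its removal. ES cells in 2i are known for low levels of DNA methylation.

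The first question was how many of the 8 genes had a strain-enriched region. In the NOD H3K4me3 list 5 of 8 genes had at least 1 region (Dnmt3a, Dnmt3l, Tet1, Tet2 and Tet3), beside 34.1% of all protein-coding genes by the same rule. In the B6 H3K4me3 list 5 of 8 genes did (Uhrf1, Dnmt3a, Dnmt3l, Tet1 and Tet3), beside 23.7%. Regions of both lists were found at 4 of 8 genes (Dnmt3a, Dnmt3l, Tet1 and Tet3), beside 10.1%. For H3K27ac, 3 of 8 genes were named in the NOD list (Dnmt3a, Dnmt3b and Tet2), beside 18.3%, and 3 of 8 in the B6 list (Dnmt3a, Dnmt3l and Tet2), beside 16.8%. In any of the 4 lists 7 of 8 genes had a region, beside 59.8%. Every share of the members by these rules thus lay above that of all genes. With 8 genes, however, 1 gene moves a share by a large step, and no test was made. By position in place of the assigned gene, 2 of 8 members had a NOD H3K27ac region, close to the 23.8% of all genes. The members are also long. A median of 87.1 kb was searched per member and 41.9 kb per protein-coding gene. Among 9488 protein-coding genes whose searched length lay within the range of the members, 41.0 to 132.9 kb, H3K4me3 shares were computed again. They were 36.1% for NOD, 23.5% for B6 and 9.55% for both. This range begins near the median of all genes, so it does not match the lengths of the members. These shares therefore cannot show how much length matters. Per searched Mb there were 11.8 NOD and 14.8 B6 regions at the members, and 6.11 and 3.62 at all protein-coding genes.

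**Figure D1:**
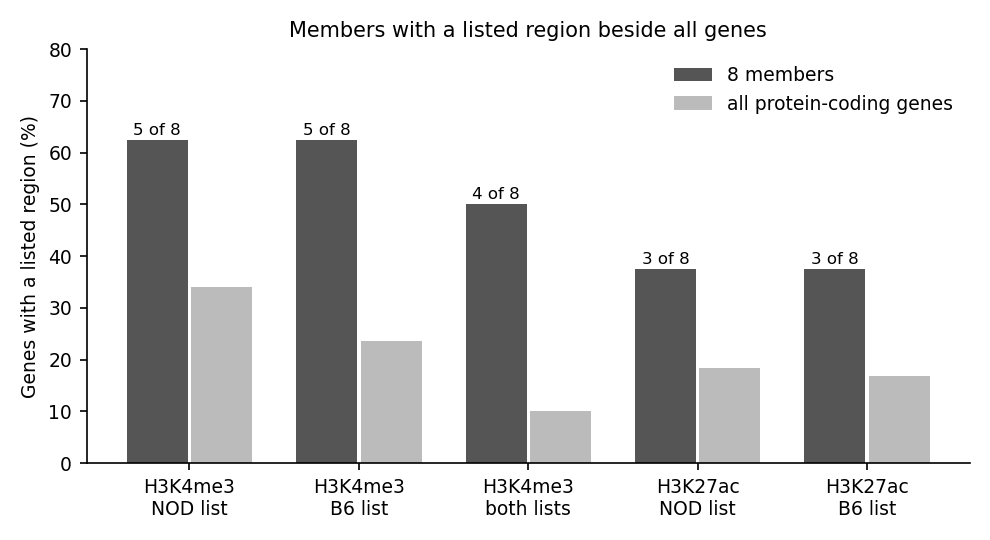
Share of genes with a listed region, in percent, by mark and list. Dark bars are the 8 members, with their count, and light bars are all 21774 protein-coding genes. The gap is widest for regions of both H3K4me3 lists, at 4 of 8 members beside 10.1% of genes.

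H3K4me3 values are given as tags in each library, and the ratio between strains is scaled to the library totals, with an exact 95% interval that covers counting error only. As regions had to differ by 4-fold to be listed, these ratios are a description. The 8 NOD regions held between 22 and 172 NOD tags, with a median of 62.5, and between 0 and 18 B6 tags. The median over all 12077 NOD regions was 30 NOD tags. The 10 B6 regions held between 14 and 129 B6 tags, with a median of 21, and between 0 and 40 NOD tags. The median over all 7587 B6 regions was 20. Of the NOD regions, 5 of 8 held 50 or more NOD tags, beside 22.0% of their list, and of the B6 regions 1 of 10 held 50 or more B6 tags, beside 5.87%. These tags are not scaled for depth, so the strains are not compared by them. Outside gene bodies, the outermost region within the 20 kb window lay 14.3 kb from a TSS and held 172 NOD and 13 B6 tags. The nearest region beyond the window lay 20.5 kb from a TSS and held 24 and 3 tags. Both were upstream of Tet1.

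**Figure D2:**
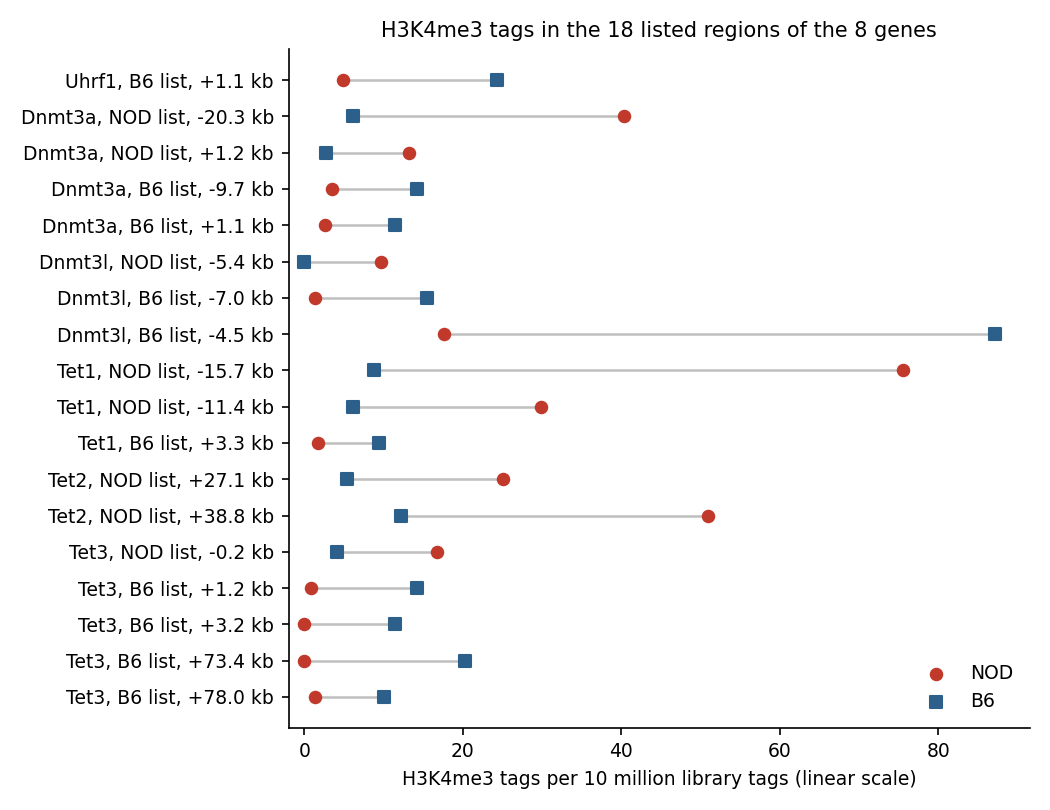
H3K4me3 tags per 10000000 library tags (x axis, linear) in the 18 listed regions, named by gene, list and distance of the region centre from the nearest TSS. Circles are NOD and squares B6, 1 library each. The widest gaps are at Dnmt3l in the B6 list (17.6 in NOD and 87.2 in B6) and at Tet1 in the NOD list (75.6 and 8.79).

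The de novo enzyme Dnmt3a (chromosome 12, 3801559 to 3914443, plus strand) had regions of all 4 lists. The region with the most tags lay in intron 4 of 22 (numbers of introns and exons are those of the longest RefSeq transcript) at 3871075 to 3871793, upstream of the nearest internal TSS by 20.3 kb. It held 92 NOD tags and 9 B6 tags, 6.65-fold higher in NOD (3.35 to 15.0). A second NOD region, in intron 1 (3825462 to 3825962) and 1.19 kb downstream of another internal TSS, held 30 NOD and 4 B6 tags, a ratio of 4.88 (1.72 to 19.1). Both NOD regions of Dnmt3a were thus inside the gene and away from its outermost start.

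In the B6 list, a region upstream of Dnmt3a by 9.66 kb (3791645 to 3792145) held 21 B6 and 8 NOD tags, 4.04-fold higher in B6 (1.72 to 10.5). It lay just above the 4-fold limit. Another, in intron 6 (3892547 to 3893047) and 1.05 kb downstream of an internal TSS, held 17 B6 and 6 NOD tags, a ratio of 4.36 (1.64 to 13.5). Its centre was also in exon 1 of Gm31623, a long noncoding RNA on the opposite strand.

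The H3K27ac regions of Dnmt3a had low scores. In intron 1, a B6 region (3825654 to 3825916) had a score of 7.35 and ranked 5075 of 5525. By score per bp it ranked 4244. It lay wholly inside the NOD-enriched H3K4me3 region of the same intron, so regions listed for different strains shared 263 bp. The H3K4me3 tags were counted over the whole NOD region, not over this piece. Over the whole list, 0.886% of NOD H3K4me3 regions overlapped a B6 H3K27ac region. The NOD H3K27ac region assigned to Dnmt3a (3780984 to 3781217) was also low by score, at rank 4444 of 6126 and a score of 8.89. By score per bp it ranked 2933, near the middle of its list. It lay in the last intron of the neighbouring gene Dtnb, and the file puts it 25.9 kb upstream of Dnmt3a. The shared piece of intron 1 is shown because regions of the 2 marks listed for different strains overlap there. It is given on the plus strand of GRCm38.p6, the same build as mm10, in lower case, with CpGs in capitals here and in all sequences that follow.

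Dnmt3a intron 1, chr12:3825654-3825916: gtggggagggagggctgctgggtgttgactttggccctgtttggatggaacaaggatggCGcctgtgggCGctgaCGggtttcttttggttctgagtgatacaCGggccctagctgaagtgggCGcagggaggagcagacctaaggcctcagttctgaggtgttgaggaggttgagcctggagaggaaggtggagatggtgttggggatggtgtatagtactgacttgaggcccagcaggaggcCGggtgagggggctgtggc

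The piece holds 6 CpGs. Its G and C content, 60.1%, exceeded that of 96.4% of the B6 H3K27ac regions.

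Dnmt3b, the second de novo enzyme (chromosome 2, 153649411 to 153687730, plus strand), had no region in either H3K4me3 list. It had the H3K27ac region with the highest score of the 7, at 39.7, ranked 1191 of 6126 in the NOD list. This region was wide, at 4182 bp (153639454 to 153643636), and its centre was 7.90 kb upstream of the TSS in a B1 repeat, a short interspersed element. By score per bp it ranked 5762. Its middle is shown, where 54.7% of bases are marked as repeats in the reference and there is 1 CpG.

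Upstream of Dnmt3b, chr2:153641396-153641695: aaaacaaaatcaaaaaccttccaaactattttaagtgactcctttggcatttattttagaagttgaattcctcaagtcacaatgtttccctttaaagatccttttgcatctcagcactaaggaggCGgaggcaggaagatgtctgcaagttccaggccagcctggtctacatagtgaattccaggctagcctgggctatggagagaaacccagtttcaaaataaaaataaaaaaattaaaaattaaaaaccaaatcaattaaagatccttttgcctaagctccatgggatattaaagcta

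Dnmt3l, the cofactor (chromosome 10, 78042287 to 78063622, plus strand), had regions of 3 lists packed between 78035023 and 78038659, upstream of its start, and none in its body. All lay in the body of Aire, the autoimmune regulator that drives expression of tissue antigens in the thymus, which is on the opposite strand and overlaps the start of Dnmt3l. The largest B6 region (78037233 to 78038373) held 129 B6 tags and 40 NOD tags, 4.96-fold higher in B6 (3.45 to 7.26). It ranked 80 of 7587 by tags and was the only member region in the B6 list with more than 50 tags. Its centre was 4.48 kb upstream of the Dnmt3l TSS and in intron 9 of 14 of Aire.

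Next to it, with a gap of 84 bp, a NOD region (78036649 to 78037149) held 22 NOD tags and 0 B6 tags. With B6 set to an assumed floor of 3 tags, the ratio was 4.77. The exact 95% lower limit, which also covers the error of the 22 tags, was 3.56. On its other side, after 1126 bp, a second B6 region (78035023 to 78035523) held 23 B6 and 3 NOD tags, a ratio of 11.8 (3.56 to 61.3). The direction thus changed from B6 to NOD and back to B6 along this stretch. Of all NOD H3K4me3 regions, 1.33% had a B6 region within 1 kb and 2.38% within 2 kb.

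A B6 H3K27ac region (78037968 to 78038659) overlapped the largest H3K4me3 region of Dnmt3l by 406 bp, so both marks had a region listed for B6 there. The score of this H3K27ac region was 15.5, rank 2206 of 5525, but by score per bp it ranked 4807. The file places it in a RMER20A element, a long terminal repeat of the ERVK class. Over the whole list, 3.63% of B6 H3K4me3 regions overlapped a B6 H3K27ac region. The middle 300 bases of each of these 3 regions are shown on the plus strand, in the order of their position, as the direction changes between the first and the second.

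Dnmt3l upstream, NOD H3K4me3, chr10:78036750-78037049: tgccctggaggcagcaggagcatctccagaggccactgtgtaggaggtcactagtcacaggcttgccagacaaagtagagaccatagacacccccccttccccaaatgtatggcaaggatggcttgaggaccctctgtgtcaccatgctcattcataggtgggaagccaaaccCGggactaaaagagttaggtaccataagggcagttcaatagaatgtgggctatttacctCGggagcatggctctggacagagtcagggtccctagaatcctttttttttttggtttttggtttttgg
Dnmt3l upstream, B6 H3K4me3, chr10:78037654-78037953: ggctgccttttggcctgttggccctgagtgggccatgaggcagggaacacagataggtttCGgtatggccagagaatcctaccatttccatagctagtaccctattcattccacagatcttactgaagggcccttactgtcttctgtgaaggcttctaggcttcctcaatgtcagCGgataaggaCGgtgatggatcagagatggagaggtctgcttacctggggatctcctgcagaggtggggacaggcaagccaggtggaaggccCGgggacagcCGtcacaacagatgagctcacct
Dnmt3l upstream, B6 H3K27ac, chr10:78038164-78038463: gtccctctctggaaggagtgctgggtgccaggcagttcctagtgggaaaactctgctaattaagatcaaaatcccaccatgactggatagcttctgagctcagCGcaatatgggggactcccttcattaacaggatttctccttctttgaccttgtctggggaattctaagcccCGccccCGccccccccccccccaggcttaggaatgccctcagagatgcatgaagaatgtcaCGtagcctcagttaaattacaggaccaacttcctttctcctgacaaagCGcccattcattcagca

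They hold 2, 5 and 5 CpGs. In the reference, 12% of the first, none of the second and 27.7% of the third are marked as repeats.

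Of the maintenance pair, Dnmt1 (chromosome 9, 20907206 to 20959888, minus strand) was the only member without a region in any list. By position, a B6 H3K27ac region (20913725 to 20914142) lay in its body, centred in exon 29 of 39, but the file assigns it to the microRNA gene Mir7081. Its score was 14.9, rank 2298 of 5525. Uhrf1 (chromosome 17, 56303337 to 56323486, plus strand) had 1 region, of the B6 H3K4me3 list, in intron 2 of 16 (56305120 to 56305748). It held 36 B6 and 11 NOD tags, 5.03-fold higher in B6 (2.51 to 11.0), and its nearer edge was 807 bp from the closest TSS. Upstream of Uhrf1, a NOD H3K27ac region over the promoter of Plin3 (56290859 to 56291092) had a score of 26.2. Its rank was 1709 of 6126, and 310 by score per bp. It lay within 20 kb of Uhrf1 but was assigned to Plin3.

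Among the oxidising enzymes, Tet1 (chromosome 10, 62804570 to 62887469, minus strand) had the NOD region with the most tags. This region (62901749 to 62904612) was 2863 bp wide, 15.7 kb upstream of the TSS, and held 172 NOD tags and 13 B6 tags, 8.60-fold higher in NOD (4.90 to 16.5). It ranked 418 of 12077. A second NOD region, 11.4 kb upstream (62898661 to 62899161), held 68 and 9 tags, a ratio of 4.91 (2.44 to 11.2). Both lay in intron 2 of 2 of Gm51805, a long noncoding RNA on the other strand that begins inside Tet1 and runs past its start. At the other end of Gm51805 the direction was reversed. In intron 2 of 12 of Tet1, a B6 region (62865368 to 62866020) covered the TSS of Gm51805 and held 14 B6 and 4 NOD tags, 5.38-fold higher in B6 (1.69 to 22.5). It was 3.26 kb downstream of the nearest Tet1 TSS. Tet1 had no H3K27ac region. The middle of the wide NOD region is shown on the plus strand as the member region with the most tags.

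Upstream of Tet1, chr10:62903031-62903330: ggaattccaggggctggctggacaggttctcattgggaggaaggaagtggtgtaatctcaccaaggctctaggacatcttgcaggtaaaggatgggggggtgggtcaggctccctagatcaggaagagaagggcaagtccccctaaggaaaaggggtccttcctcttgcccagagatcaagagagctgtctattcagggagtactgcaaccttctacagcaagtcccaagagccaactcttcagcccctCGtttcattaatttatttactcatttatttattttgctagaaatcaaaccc

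It holds 1 CpG in 300 bases. Over the whole region there were 29 CpGs, an observed over expected CpG ratio of 0.174, higher than 34.7% of NOD H3K4me3 regions.

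Tet2 (chromosome 3, 133463677 to 133545136, minus strand) was the only member with H3K4me3 regions of NOD alone. In intron 2 of 11, a region (133505137 to 133505946) held 116 NOD and 18 B6 tags, a ratio of 4.19 (2.54 to 7.32). In intron 1, another (133517001 to 133517633) held 57 and 8 tags, a ratio of 4.63 (2.20 to 11.2). They were 38.8 and 27.1 kb downstream of the nearest TSS. Repeats made up 91.4% and 31.3% of their bases.

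H3K27ac at Tet2 went both ways and had low scores. A B6 region in intron 10 of 11 (133470930 to 133471192) had a score of 9.39, rank 4052 of 5525. The others were intergenic and far upstream. A NOD region (133642303 to 133642536), 98.0 kb upstream in an L1 element, had a score of 8.56, rank 4552 of 6126. A B6 region (133808745 to 133809007), 264.5 kb upstream in an ERVK element, had a score of 9.73, rank 3884 of 5525. The file assigns each region to its nearest TSS, so they carry the name of Tet2 at these distances. By score per bp the regions of Tet2 were near the middle of their lists. In the order given they ranked 2770 of 5525, 3099 of 6126 and 2518 of 5525.

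Tet3 (chromosome 6, 83362373 to 83457208, minus strand) was the only member with a listed region over its own TSS. This NOD region (83457131 to 83457631) covered the outermost TSS and held 38 NOD and 6 B6 tags, 4.12-fold higher in NOD (1.73 to 11.9). After a gap of 1.83 kb into the gene the direction was reversed. A B6 region centred in exon 2 of 12 (83454674 to 83455303) held 21 B6 and 2 NOD tags, a ratio of 16.1 (3.95 to 142.1).

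The other 3 B6 regions of Tet3 were in intron 3 of 11 and in the last exon. The intronic one (83438177 to 83438677), 3.25 kb downstream of an internal TSS, held 17 B6 tags and 0 NOD tags, a ratio of 8.72 by the same floor with an exact lower limit of 6.35. In exon 12 of 12, a region at 83367983 to 83368628 held 30 and 0 tags, a ratio of 15.4 by the floor with an exact lower limit of 11.8. A further one at 83363391 to 83363891 held 15 and 3 tags, a ratio of 7.69 (2.18 to 41.4). Tet3 thus had 4 of the 10 B6 regions of the members.

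Chromosome 6, which carries Tet3, differed from the chromosomes of the other members. On it, 557 NOD and 1034 B6 H3K4me3 regions were listed, so that 35.0% were of NOD, whereas the NOD share was 59.0% to 65.9% on the 6 other chromosomes that carry a member. The part of this in the B6 regions of Tet3 was not tested. Without Tet3, the B6 H3K4me3 list held 6 regions at 4 members and the NOD list 7 regions at 4 members. The first 250 bases upstream of the covered Tet3 TSS are shown on the minus strand.

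Tet3 upstream of the TSS, chr6:83457209-83457458: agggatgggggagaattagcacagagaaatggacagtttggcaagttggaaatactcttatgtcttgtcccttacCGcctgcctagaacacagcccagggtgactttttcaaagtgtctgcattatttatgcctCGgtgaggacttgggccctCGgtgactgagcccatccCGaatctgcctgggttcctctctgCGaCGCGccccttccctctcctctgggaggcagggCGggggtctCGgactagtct

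This stretch holds 9 CpGs, an observed over expected ratio of 0.466. The listed NOD region as a whole had a ratio of 0.396, higher than 78.5% of the NOD H3K4me3 regions, and 4.39% repeat bases.

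**Figure D3:**
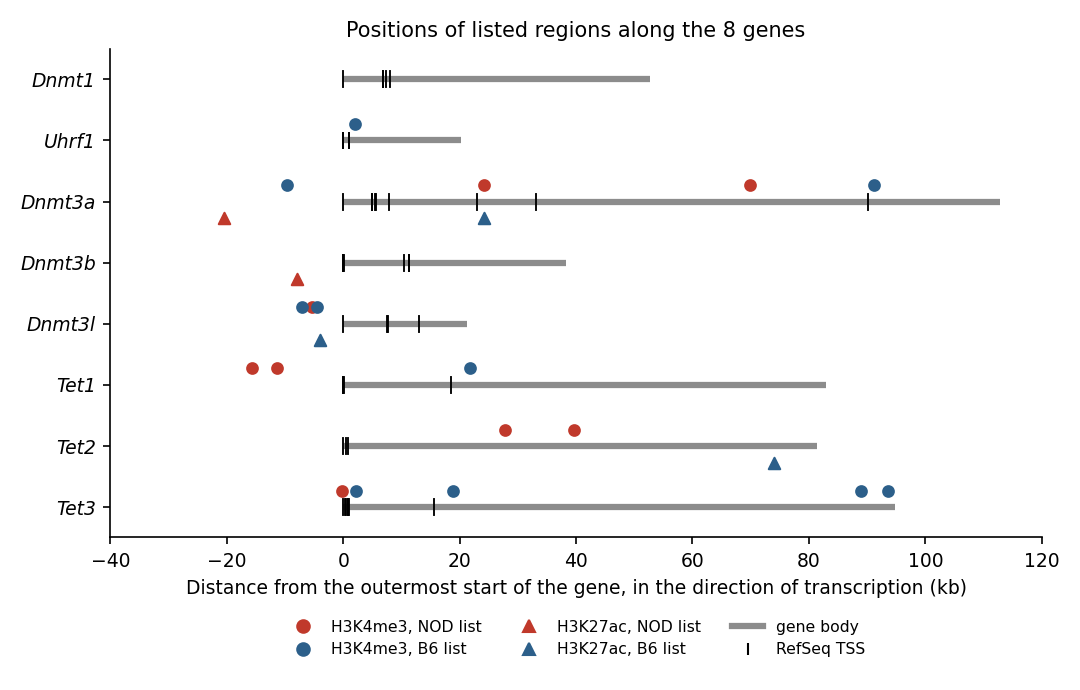
Listed regions along the 8 genes, in kb from the outermost start of each gene in the direction of transcription. Grey bars are gene bodies, ticks are RefSeq TSSs, circles above a gene are H3K4me3 and triangles below are H3K27ac, in red for NOD lists and blue for B6 lists. The 2 intergenic H3K27ac regions of Tet2 at 98.0 and 264.5 kb upstream are outside the plot, and Tet3 alone has a circle at its outermost start.

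Promoters were then compared with other places. Within 1 kb of a TSS, 2 of 8 members had a NOD H3K4me3 region (Dnmt3a and Tet3), beside 8.54% of protein-coding genes, and 3 of 8 a B6 one (Uhrf1, Dnmt3a and Tet3), beside 5.29%. At Dnmt3a, and in the B6 list also at Uhrf1 and Tet3, these were internal starts. Of the 18 regions, 8 were centred in an intron, 3 in an exon and 7 upstream of the gene.

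All H3K27ac scores of the members were far below the top of their lists, which reached 1045.4 in NOD and 658.6 in B6. Scores are the signal of a strain minus that of the other, on a scale the files do not state. Some listed scores were below 0, down to -41.3 in NOD and -819.0 in B6. The lowest scores of the members were 8.56 in NOD and 7.35 in B6. The median score was 8.89 for the 3 NOD regions and 9.56 for the 4 B6 regions, beside 12.9 and 12.8 for all regions of the lists. By position in place of the assigned gene, 2 of 8 members had a NOD region (Uhrf1 and Dnmt3b), beside 23.8% of genes, and 4 of 8 a B6 region (Dnmt1, Dnmt3a, Dnmt3l and Tet2), beside 21.6%.

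**Figure D4:**
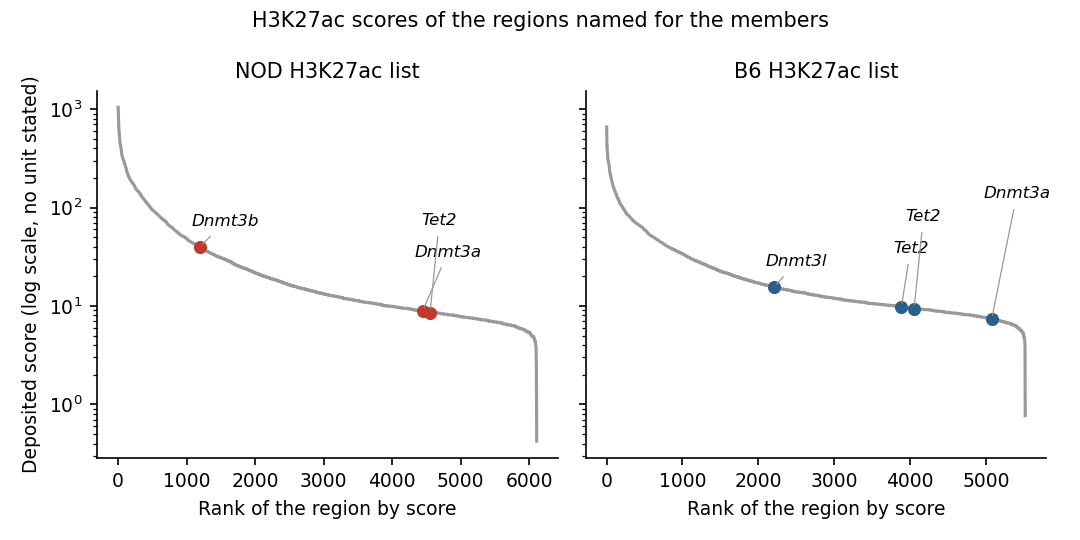
Deposited H3K27ac score (y axis, log scale) against rank for all regions with scores above 0 in the NOD and B6 lists, with the regions assigned to members as points. Dnmt3b, with a score of 39.7, is the highest and Dnmt3a in B6, with 7.35, the lowest.

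Sequence content was not used to choose regions and varied widely among them. The observed over expected CpG ratio ran from 0.0475 to 0.396 in the 8 NOD H3K4me3 regions, with a median of 0.193, and from 0.0719 to 0.835 in the 10 B6 regions, with a median of 0.317. The medians of the whole lists were 0.234 and 0.233. The highest ratio, 0.835 with 27 CpGs, belonged to the B6 region upstream of Dnmt3a and exceeded 99.1% of B6 regions. The lowest, 0.0475 with 2 CpGs, belonged to the NOD region in intron 2 of Tet2. Repeats made up at least 50% of bases in 2 of 8 NOD regions, beside 12.5% of their list, and in 1 of 10 B6 regions, beside 15.1%.

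**Figure D5:**
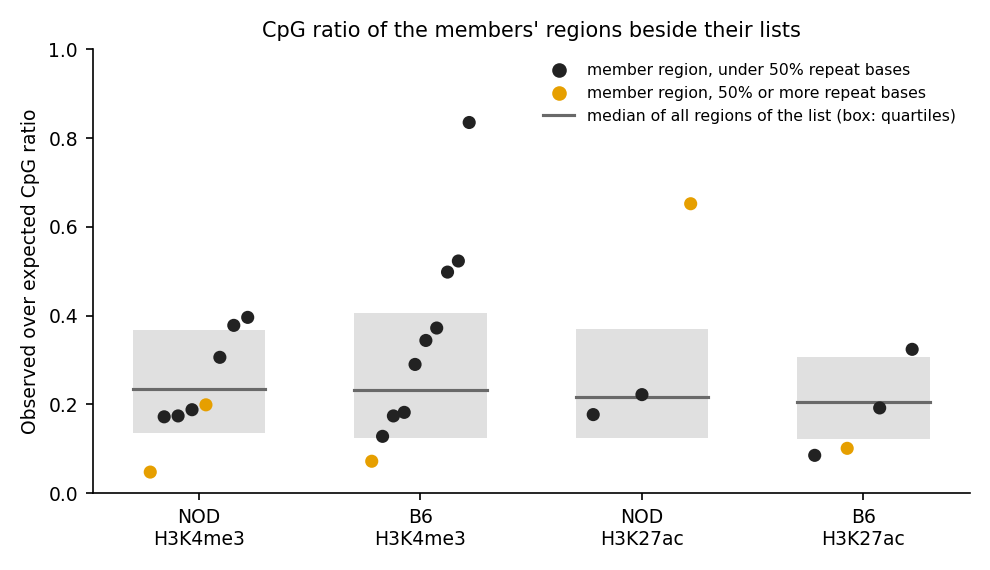
Observed over expected CpG ratio of the members' regions (points) in each list, beside the median (line) and quartiles (box) of all regions of that list. Orange points have 50% or more repeat bases. The highest point is the B6 H3K4me3 region upstream of Dnmt3a at 0.835, and the NOD H3K27ac region of Tet2, an L1 element, is at 0.652.

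Partners of the 8 enzymes were examined with the same rule, in a list of 33 genes of which 32 were found in the annotation. These cover replication partners, base excision repair, readers of methylated CpG, regulators and related methyltransferases. Regions are credited to a partner by this rule alone, and other genes at the same place are not given. A NOD H3K4me3 region was found at 16 of 32 (50% beside 34.1% of all genes), a B6 one at 13 (40.6% beside 23.7%), a NOD H3K27ac region at 6 (18.8% beside 18.3%) and a B6 one at 12 (37.5% beside 16.8%). By group, a region of any list was found at 6 of 6 replication partners, 7 of 8 repair genes, 3 of 7 readers, 8 of 10 regulators and at Trdmt1, the related methyltransferase found. In all, 25 of 32 had a region of any list (59.8% of all genes did). Dppa3, which protects maternal methylation in the zygote, was the only partner in all 4 lists. A wide NOD H3K27ac region upstream of it (chromosome 6, 122617503 to 122626910) had a score of 44.8, the highest of the partners in NOD. Its B6 H3K4me3 region 2.52 kb upstream (122623651 to 122624151), inside that H3K27ac region, held 16 B6 and 0 NOD tags. Downstream at 7.03 kb, Dppa3 had a NOD H3K4me3 region with 31 NOD and 5 B6 tags. A B6 one at 17.8 kb held 19 B6 and 6 NOD tags. The B6 H3K27ac region assigned to Dppa3, with a score of 39.0, was 36.7 kb downstream of its TSS. Dppa3 and Mbd4 are, like Tet3, on chromosome 6.

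Ogt, a glycosyltransferase that binds Tet proteins, had the most NOD tags of the partners, with 304 NOD and 44 B6 tags in an intron (chromosome X, 101641667 to 101643080), a ratio of 4.49 (3.27 to 6.31). Apex1, an endonuclease of base excision repair, had the most B6 tags, with 107 B6 and 14 NOD tags, a ratio of 11.8 (6.71 to 22.2). That region lay downstream of the gene (chromosome 14, 50944783 to 50945554), at the edge of the window, with its centre 20.2 kb from the TSS. Neil2, a glycosylase, had the highest B6 H3K27ac score, 51.3, in intron 1 (chromosome 14, 63192767 to 63193858). Neil2 also had a NOD H3K4me3 region with 18 NOD and 2 B6 tags.

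Of the genes with regions in 3 lists, Mbd4, a glycosylase that binds methylated CpG, had both marks in B6 in intron 1. The H3K4me3 region (chromosome 6, 115851925 to 115852425) held 52 B6 and 19 NOD tags, a ratio of 4.21 (2.45 to 7.54), and overlapped an H3K27ac region with a score of 20.1. Another B6 region of Mbd4, in its last exon, held 10 B6 and 0 NOD tags, and a NOD region upstream held 21 NOD and 0 B6 tags. Kdm2b, which binds unmethylated CpG islands, had 4 NOD H3K4me3 regions, the largest 1.53 kb upstream of a TSS (chromosome 5, 122990205 to 122991406) with 126 NOD and 11 B6 tags, a ratio of 7.45 (4.02 to 15.3). Kdm2b went the other way in an exonic B6 region with 27 B6 and 0 NOD tags and in 2 B6 H3K27ac regions with scores of 9.73 and 9.17. Xrcc1, a scaffold of base excision repair, had 2 NOD regions upstream, at 15.0 and 12.9 kb. They held 165 and 136 NOD tags and 22 and 20 B6 tags. The H3K27ac scores of Xrcc1 were low, 6.19 in NOD and 8.6 in B6. At Zbtb38, a reader of methylated CpG, the NOD H3K4me3 regions held 78 and 18 NOD tags and 10 and 2 B6 tags. Its H3K27ac scores were 14.1 and 5.86 in the NOD list and 29.2 in the B6 list. At Cxxc5, a CpG-binding protein, a B6 H3K4me3 region held 52 B6 and 19 NOD tags and a NOD one 28 NOD and 3 B6 tags, and the B6 H3K27ac scores were 48.7 and 8.48.

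As a measure of likeness, the own-strain tags or scores above 0 were summed per gene and list by position, and the distance of their log2 values (after adding 1) over the 4 lists was taken from Dnmt3a, the member with the most regions. Its sums were 122 NOD tags, 38 B6 tags, no NOD score and a B6 score of 7.35. The closest genes were Lrrc4c at a distance of 0.400, Faf1 at 0.532 and Cd3eap at 0.552.

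Defining genes of other cell types were also found in the lists. A region of any list was present at 10 of 10 ES cell genes, 6 of 7 fibroblast genes, 4 of 6 endoderm genes and 6 of 6 trophoblast genes. By the same rule 59.8% of all protein-coding genes had one, so a listed region is common for a gene at these sizes of list. Each group lay above this share, and no test was made. As the lists hold differences between strains only, the labelled cell type could not be checked from them.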

How the data were processed

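ChIP-Seq of H3K4me3 and H3K27ac was analysed in 1 library per strain and mark. According to the methods, the authors mapped reads to mm10 with bowtie2 and used HOMER v4.8. The submitters' processing notes name CASAVA 1.8.2, STAR 2.2.0c and mm9, but the file headers name mm10, and 89.8% of TSS distances in both H3K27ac files matched GRCm38 to within 10 bp. Reads of both strains were placed on the same B6-derived reference.

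For H3K4me3, per the file headers, regions had to exceed both the other strain and the local 10 kb by 4-fold, with a p-value of 1.00e-04. The deposited tag count is whole in the B6 list. The deposited signal columns (normalised tags, and NOD tags scaled to the B6 library) were turned into whole NOD tags, all within 0.0769 of a whole number. Values of 0.5 or 0.3 that the authors print for no tags were set to 0. The deposited fold was used only in an alternative, and p-values of single regions were not used. The deposited H3K27ac score was read as a difference between strains, and it comes without tag counts.

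Members and lists were chosen with earlier results of these data known. All 8 members are described with every region; partners are named when in at least 3 lists or highest of a list, and likeness names the 3 nearest genes. The sequences in intron 1 of Dnmt3a and in the NOD region of Dnmt3l, and the length range for genes, were chosen after their values were seen. Intervals are exact (Clopper-Pearson) for tags conditional on their sum. Of the partners, Dnmt3c was not matched in the annotation. Repeat bases are those in lower case in the reference. Search, interval and recovery functions were tested on simulated data. Python 3.11.15, numpy 2.4.6, pandas 2.3.3, scipy 1.17.1 and matplotlib 3.10.9 were used. Windows, tag and fold limits, H3K27ac assignment and scaling were varied.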

Additional observations from a re-analysis of the deposited data

How the results depend on the processing

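With 1 library per strain and mark, no library could be left out, no replicate error exists and no call has a test. With a TSS window of 5 kb, NOD H3K4me3 regions of the members went from 8 to 5 and members with one from 5 to 3, beside 24.4% of protein-coding genes; in gene bodies alone there were 5 such regions. At a fold of at least 8, 2 NOD regions at 2 members (21.0% of genes) and 4 B6 regions at 2 members (14.9%) were left. With at least 20 tags, own or scaled to the smaller library, B6 regions went from 10 to 6. With H3K27ac scores above the median of the list, 1 region at 1 member was left in NOD (9.68% of genes) and 1 at 1 in B6 (9.02%). By score per bp, the median percentile of the NOD H3K27ac regions moved from 27.3 to 48.7. Leaving out Tet3, a choice made after seeing the data, took the B6 H3K4me3 regions from 10 to 6. The other 21 recounts stayed within 1.5 times of the value in the text, or within 10 percentile points. Scaling was varied for 8 strain ratios, each of the region with the most tags of a member in a list. Dnmt3l in the NOD list and Tet3 in the B6 list were left out, as the other strain had 0 tags there. The scalings move all 8 ratios alike within a list. For Tet1 in the NOD list the ratio went from 8.60 to 8.72 with tags outside listed regions and to 13.2 without scaling. Neither thus tests a direction in regions listed for a 4-fold difference. Without scaling, the NOD to B6 ratio of Dnmt3l in the B6 list moved from 0.202 to 0.310, outside its interval. Depth limits the regions with few tags most, as a ratio from 15 and 3 tags had an interval of 2.18 to 41.4.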
